A study of Mus musculus with 16 samples.

Results

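The genes described here make cholesterol and fatty acids. The list held 32 genes, chosen by symbol for their part in these pathways, of the 18193 genes that a probe set of the arrays names. A probe set of their own was found for 31, and all 31 reached a signal of 200 on at least 2 arrays, the minimum for testing, as did 11481 genes in all. Of the 31, 30 reached it on all 16 arrays, and Tm7sf2 on 6 of the 8 arrays with TSA and 1 of the 8 without, so that it was tested only through arrays on which it was high. Acat2, which encodes the thiolase of the first cytosolic step, was not analysed here. By role, 6 measured genes act between acetyl-CoA and farnesyl diphosphate (the mevalonate steps), 11 between farnesyl diphosphate and cholesterol, 5 in the regulation of both pathways, 8 in the making of fatty acids, and Stard4 carries sterols between membranes.

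Cholesterol is built from acetyl-CoA through mevalonate and the chain molecule squalene, which is folded into a ring system and then trimmed in many steps. Several of these enzymes, and the desaturases that put double bonds into fatty acids, need molecular oxygen, and most of those carry iron. The pathways are switched on by the SREBP transcription factors, which SCAP escorts from the endoplasmic reticulum when sterols are low and which INSIG proteins hold back when sterols are plentiful.

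RNA was measured in primary embryonic fibroblasts from e14.5 mouse embryos, in 4 lines under 4 treatments, with 1 array for each of the 16 combinations. All lines were infected with a Cre adenovirus at passage 3 and then expanded at least 100-fold. Cre deletes flox alleles, and each line carried 1 flox allele of Crebbp (the gene of CBP) or Ep300 (the gene of p300), which are related histone acetyltransferases. The control lines were flox1 (CBP +/flox) and flox2 (p300 +/flox). The triCH1 lines were triCH1flox1 (CBP CH1/flox with p300 CH1/CH1) and triCH1flox2 (CBP CH1/CH1 with p300 CH1/flox), where CH1 marks alleles that lack this protein-binding domain. Cells received ethanol vehicle, TSA (trichostatin A, an inhibitor of histone deacetylases) at 100 ng/ml, DP (dipyridyl, an iron chelator that mimics hypoxia) at 100 µM, or TSA and, 30 min later, DP. RNA was taken after 3 h, so all control and treated cells share the virus, a flox allele and the ethanol. There was no second culture of any line and treatment. The p-value of a treatment effect sets the mean change against how far the lines of the same class disagreed. That spread was estimated with help from all genes tested, and differences between the classes do not enter it.

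Array values are signals on a linear scale that the authors set to the same trimmed mean on every array. The flox1 vehicle array stood apart. Gapdh had a 3' to 5' signal ratio of 2.59 there, while the other arrays had 0.907 to 1.26. For actin the ratio was 2.07, and elsewhere 1.29 to 1.63. The 18S ribosomal RNA signal was also highest there, at 9280, against 1043 to 8257 elsewhere, with 8257 on the flox2 DP array. Of the 31 genes, 23 had their lowest vehicle signal on the flox1 vehicle array, against 30.7% of all genes tested. For 14 of the 31 it was the lowest of all 16 arrays, against 11.7% of all genes. All 12 fibroblast markers passed the signal minimum. Of 7 measured adipocyte markers 3 passed, Fabp4 with 363 to 1487, while Adipoq, Cidec, Lep and Retn did not. The summed signal of the list was 892 to 1928 with vehicle, 1166 to 1552 with TSA, 768 to 2051 with DP and 967 to 2107 with both, so the ranges overlap. Of 7 macrophage markers 3 passed (Adgre1, Csf1r and Cd14, none above 375), with summed signals of 734 to 871 with vehicle, 758 to 992 with TSA, 754 to 1107 with DP and 766 to 975 with both. Of 5 epithelial markers 2 passed (Epcam up to 1121 and Krt18 up to 477), with sums of 687 to 1841, 710.5 to 1326, 678 to 1088 and 607.5 to 1052 in the same order, while Cdh1, Krt8 and Krt14 did not. No endothelial or hepatocyte marker passed. The part of such cells in the results was not tested. Over vehicle and DP, mean Crebbp signal was 1529 in flox1 and 1496 in triCH1flox1, against 2046 in flox2 and 2190 in triCH1flox2. Ep300 was lower where its own allele was floxed, at 625 in flox2 and 856 in triCH1flox2, against 1202 in flox1 and 1632 in triCH1flox1. Xist, expressed in female cells, ranged from 1751 to 5389 on triCH1 arrays and from 10.1 to 111 on control arrays. The Y-linked Eif2s3y ranged from 8.9 to 82.9 on triCH1 arrays and from 974 to 1519 on control arrays, so sex and CH1 genotype cannot be told apart.

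The promoters of 3 of the genes are shown because Hsd17b7 and Dhcr7 had the largest rises with TSA while Hmgcs1 fell. Each is the stretch before the outermost start of the gene in the RefSeq annotation of GRCm38.p6, at chr1:169969243-169969455 (minus strand), chr7:143822917-143823166 (plus strand) and chr13:119690101-119690350 (plus strand). Capitals mark CCAAT boxes on either strand (CCAAT or ATTGG), which the factor NF-Y binds, and in Hmgcs1 also the sterol response element TCACCCCAC.
Hsd17b7: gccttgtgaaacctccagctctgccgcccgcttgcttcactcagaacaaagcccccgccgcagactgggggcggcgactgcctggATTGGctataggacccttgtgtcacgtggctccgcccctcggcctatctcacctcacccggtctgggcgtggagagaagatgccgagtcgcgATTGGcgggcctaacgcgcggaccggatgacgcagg
Dhcr7: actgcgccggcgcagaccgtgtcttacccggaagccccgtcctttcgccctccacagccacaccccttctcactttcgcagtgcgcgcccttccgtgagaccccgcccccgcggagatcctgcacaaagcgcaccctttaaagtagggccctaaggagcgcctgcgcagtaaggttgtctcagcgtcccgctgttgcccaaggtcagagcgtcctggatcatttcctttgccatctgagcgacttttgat
Hmgcs1: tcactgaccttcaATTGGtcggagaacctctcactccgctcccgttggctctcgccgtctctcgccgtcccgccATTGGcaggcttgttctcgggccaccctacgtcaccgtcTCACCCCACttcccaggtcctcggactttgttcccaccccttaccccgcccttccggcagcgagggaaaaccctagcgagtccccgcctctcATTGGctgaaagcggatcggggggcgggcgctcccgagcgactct
Hsd17b7 has 2 CCAAT boxes in this stretch, the nearer 36 to 32 bases before the gene. Its RefSeq promoter window of 250 bases runs 37 bases into the annotated gene, and those bases are not shown. Dhcr7 has no such box before its outermost start, and up to 2 before another of its 3 annotated starts. Hmgcs1 has 3, and its sterol element lies 137 to 129 bases before the gene.

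RefSeq promoters were matched for 25 of the 32 genes. In the 250 bases before each annotated start, which can lie inside the gene, 19 of the 25 (76.0%) held a CCAAT box at some annotated start, against 37.5% of 27025 genes. The box was present in 6 of the 7 matched genes that rose with TSA, in both that fell and in 11 of the 15 measured ones that did not pass. The element TCACNCCAC, sought on both strands, was found in Hmgcs1 alone (1.22% of all genes). The hypoxia core ACGTG or GCGTG, on either strand, was found in 15 of 25 (60.0%, against 41.5% of all genes). These matches are letters in a window and say nothing of what binds there.

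The first comparison asked how the genes respond to the deacetylase inhibitor. TSA raised 8 of the 31 genes and lowered 3, while 20 did not pass (limma, Benjamini-Hochberg adjusted p under 0.05 over all genes tested). Of all genes tested 28.2% passed, 15.8% higher and 12.5% lower, so these genes are read against that background. At an unadjusted p under 0.05 there were 18 of the 31, against 38.6% of all genes. Their median log2 change was 0.10, against 0.03 for all genes. Of the rises 4 lay between squalene and cholesterol, and the falls lay in the HMG-CoA synthase, in a demethylase and in a desaturase. Because each array holds RNA of a whole culture, fewer cells of a type and less RNA per cell cannot be told apart.

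Hsd17b7 encodes the keto reductase of the complex that removes methyl groups from the sterol ring. Its signal in flox1, flox2, triCH1flox1 and triCH1flox2 was 1375, 1452.5, 898.5 and 975 with vehicle, and 3241, 3633, 3583 and 2719 with TSA. It was 986, 1283, 1235 and 921 with DP, and 2912, 3032, 3746 and 2702 with TSA and DP. Every array with TSA stood above every array without it. In log2 units TSA changed it by 1.47 (2.77-fold, SE 0.113, n = 4 lines, limma adjusted p = 1.83e-07). Its other measured probe sets had changes of 0.64 and 1.61. The probe set used is of a kind whose probes can match other transcripts.

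Dhcr7 encodes the reductase of the last step to cholesterol. With vehicle its signal was 527, 630, 742 and 901 in the same order of lines, with TSA 1546, 1566, 1709 and 1655, with DP 373, 676.5, 605 and 684, and with both 1335, 1558, 1901 and 1522. The arrays with TSA again lay above all those without. The TSA change was 1.18 (2.26-fold, SE 0.142, n = 4 lines, limma adjusted p = 1.32e-05). In all, 3 of the 31 genes, Hsd17b7, Dhcr7 and Acly, were higher on each of the 8 arrays with TSA than on any of the 8 without, as were 7.28% of all genes tested, and 0 were lower, against 4.56%.

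Sqle encodes the oxygen-dependent enzyme that commits squalene to the sterol branch. Its signal was 2073, 3595, 2901 and 2925 with vehicle and 4386, 4518, 4080 and 4760 with TSA, so that the groups did not overlap. The change was 0.64 (1.56-fold, SE 0.105, n = 4 lines, limma adjusted p = 0.000235), and 0.33 to 1.06 in single lines, highest in flox1. Msmo1, an iron enzyme that oxidises the ring's methyl groups, had 2890, 5344, 5033 and 4809 with vehicle and 6209, 5887, 4779 and 5834 with TSA. The lowest of these was the flox1 vehicle array. Its change of 0.36 (limma adjusted p = 0.0437) was 0.16 without that array (adjusted p = 0.309), and in triCH1flox1 it was below 0.

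Cyp51 encodes the heme enzyme that removes a methyl group from lanosterol. It fell by 0.27 on the log2 scale (limma adjusted p = 0.0484), from 2441, 3302, 2814 and 2662 to 2334, 2482, 2120 and 2314, where the groups overlap. The fall was called in 3 of the 16 other settings tried, and leaving out any 1 line or the flox2 DP array lost it, at -0.35 to -0.18. Tm7sf2, a sterol reductase, had a change of 0.77 (adjusted p = 0.0582) at low signals of 82.7 to 214 with vehicle and 172 to 328 with TSA. The other genes of this stretch did not pass. They were Fdft1, the squalene synthase (-0.24), Lss, which closes the rings (0.10), the dehydrogenase gene Nsdhl (-0.04), the isomerase gene Ebp (0.10) and the desaturase gene Sc5d (0.13). A second probe set of Lss had a change of 0.48, and the other 2 of Sc5d had -0.45 and 0.55.

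Of the mevalonate genes, Mvd and Mvk rose and Hmgcs1 fell. Hmgcs1, whose enzyme makes HMG-CoA, went from 10787, 13284, 11047 and 11349 with vehicle to 7511, 9427, 8662 and 10095 with TSA, without overlap. Its decrease came to -0.38 (1.30-fold, SE 0.0704, n = 4 lines, limma adjusted p = 0.000638). Its other 4 probe sets had changes of -0.37 to -0.11. The one used is, as for Hsd17b7, of a kind whose probes can match other transcripts. Mvd encodes the decarboxylase that makes isopentenyl diphosphate. Its signals were 592, 666, 461 and 358 with vehicle and 660, 817, 780 and 766 with TSA, a rise of 0.53 (1.44-fold, limma adjusted p = 0.0121) that was larger in the triCH1 lines (0.70 and 1.00) than in the control lines (0.15 and 0.28). Only the flox1 TSA array lay within the vehicle range. The call was lost without flox1 (0.56), flox2 (0.50) or triCH1flox2 (0.46). The difference between the classes did not pass (0.64, SE 0.294, limma adjusted p = 0.809). The other probe set of Mvd had 0.77, with 1.48 and 0.23 in the control lines and 0.23 and 1.16 in the triCH1 lines. On that probe set the triCH1 lines did not stand above the control lines.

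Mvk, the mevalonate kinase gene, had 306, 491, 441 and 430 with vehicle and 570.5, 646, 730 and 635 with TSA. The groups did not overlap. The change of 0.59 (limma adjusted p = 0.0367) was 0.46 without the flox1 vehicle array (adjusted p = 0.149), and its other probe set had 0.17. The kinase gene Pmvk (0.06), the isomerase gene Idi1 (0.25) and the farnesyl diphosphate synthase gene Fdps (0.28) did not pass. Pmvk ran from -0.77 in flox1 to 0.79 in triCH1flox2.

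Among the regulators, Insig2 rose. Its signal was 903, 919, 1179 and 1116 with vehicle and 2287, 1275, 1567 and 1838 with TSA, with no overlap and the largest change in flox1. The change was 0.71 (1.63-fold, SE 0.144, n = 4 lines, limma adjusted p = 0.00139), and all 3 probe sets lay between 0.58 and 0.71. Without the flox1 line it was 0.50 (adjusted p = 0.0525). Insig1 had -0.63 and 0.00 in the control lines and 0.58 and 0.81 in the triCH1 lines. The difference of 1.01 (SE 0.316) did not pass (limma adjusted p = 0.809). Srebf1, Srebf2 and Scap had changes of 0.24, -0.02 and 0.28 without passing.

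In the fatty acid branch Acly rose and Scd2 fell. Acly encodes the lyase that makes cytosolic acetyl-CoA from citrate, the source of carbon for both pathways. Its signals were 3727, 4485, 4598 and 5652 with vehicle and 6613, 6917, 6571 and 6602 with TSA. With DP they were 4636, 5201, 5730 and 4740, and with both 6950, 6750, 8288 and 7741. The TSA change was 0.54 (1.46-fold, SE 0.0928, n = 4 lines, limma adjusted p = 0.000341). Its probe sets disagreed, since the other 4 had changes of 0.58, 0.17, -0.05 and -0.49, and the mean of all 5 was 0.15 without passing.

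Scd2 encodes a stearoyl-CoA desaturase. It went from 15993, 17504, 20536 and 18838 to 14660, 14270, 16028 and 15899, a change of -0.25 (limma adjusted p = 0.00594). The lowest vehicle array lay just inside the TSA range, and without triCH1flox1 (-0.23) or flox2 (-0.21) the call was lost. Its other 2 probe sets had changes of 0.40 and 0.20, and the mean of all 3 was 0.12, so the direction of this change depends on the probe set. Acaca, the gene of the carboxylase that commits acetyl-CoA to fatty acids, had 0.02, and the fatty acid synthase gene Fasn -0.22 (adjusted p = 0.0549). The elongase gene Elovl6 and the desaturase genes Scd1, Fads1 and Fads2 had 0.06, 0.08, -0.07 and -0.19. Stard4 had 0.10. None of these passed.

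**Figure D1:**
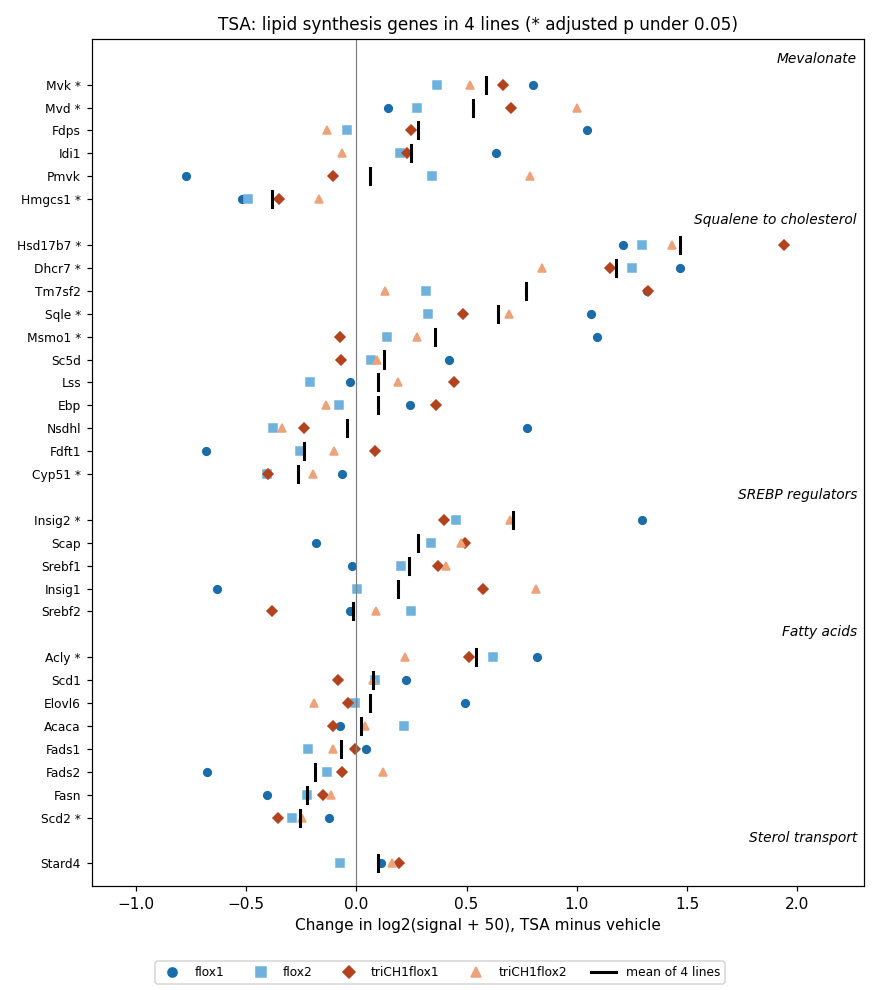
Change with TSA (TSA minus vehicle) of 31 genes grouped by role. The x axis is the difference in log2(signal + 50), each symbol is 1 line, the bar is the mean of 4 lines, and an asterisk marks limma adjusted p under 0.05. Hsd17b7 and Dhcr7 stand at means of 1.47 and 1.18, with the lines between 0.84 and 1.94.

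Leaving out the flox1 line left 6 genes past the threshold with TSA, and leaving out triCH1flox1 left 7. Without the flox1 vehicle array 10 passed, 9 of them among the 11. How many of all genes tested passed in these fits is not given here, so the counts have no background to be read against. The arrays fall into 2 barcode series in the labels. On the 12 arrays of the larger one the changes were 1.34 for Hsd17b7 and 1.10 for Dhcr7. All vehicle arrays are in the larger series. The smaller one holds every treated array of triCH1flox1 and the flox2 array with TSA and DP. Changes of these arrays from vehicle cannot be told apart from a difference between the series.

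The effect of TSA could be read a second time, on arrays that the first comparison did not use, by setting TSA with DP against DP alone. This comparison was added after the values were seen, and no vehicle array enters its fold changes. In it 6 genes rose and 2 fell, while 29.9% of all genes passed (17.7% higher and 12.2% lower). Unadjusted, 12 of the 31 had a p under 0.05, against 39.6% of all genes. Of these 8, 7 had passed in the same direction against vehicle, out of 11 there. How many of all genes tested passed in both comparisons was not counted, so this overlap has no background to be read against. The second reading is also not independent of the first, since both use the same 4 lines. They share the spread estimated for each gene as well, with an SE of 0.113 for Hsd17b7 and 0.142 for Dhcr7 in both. Hsd17b7 rose by 1.45 (2.73-fold, SE 0.113, n = 4 lines, limma adjusted p = 1.84e-07) with single lines between 1.21 and 1.56. Dhcr7 rose by 1.38 (2.61-fold, SE 0.142, limma adjusted p = 2.52e-06), Acly by 0.55 (adjusted p = 0.000296), Sqle by 0.49 (adjusted p = 0.00215), Idi1 by 0.40 (adjusted p = 0.0126) and Insig2 by 0.40 (adjusted p = 0.0466). Hmgcs1 fell by 0.21 (limma adjusted p = 0.0340), and its other probe sets had changes of -0.32 to -0.23.

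The fall of Scd2 was larger in this comparison. Its signal was 23057, 24522, 23277 and 21098 with DP and 15356, 16154, 18115 and 15959 when TSA was added, so that the groups did not overlap. It fell by 0.49 (1.40-fold, SE 0.0631, n = 4 lines, limma adjusted p = 2.41e-05), and its other probe sets by 0.72 and 0.39. Mvd, Mvk, Msmo1 and Cyp51, which had passed against vehicle, had changes of 0.39, 0.31, 0.29 and -0.07 here without passing. Leaving out the flox2 DP array, which had a high 18S ribosomal RNA signal (8257), left 5 genes, as did leaving out the flox2 line. Each time Hmgcs1, Idi1 and Insig2 were lost. Hmgcs1 (-0.21 to -0.17) and Insig2 (0.32 to 0.47) were also lost without any other single line.

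**Figure D2:**
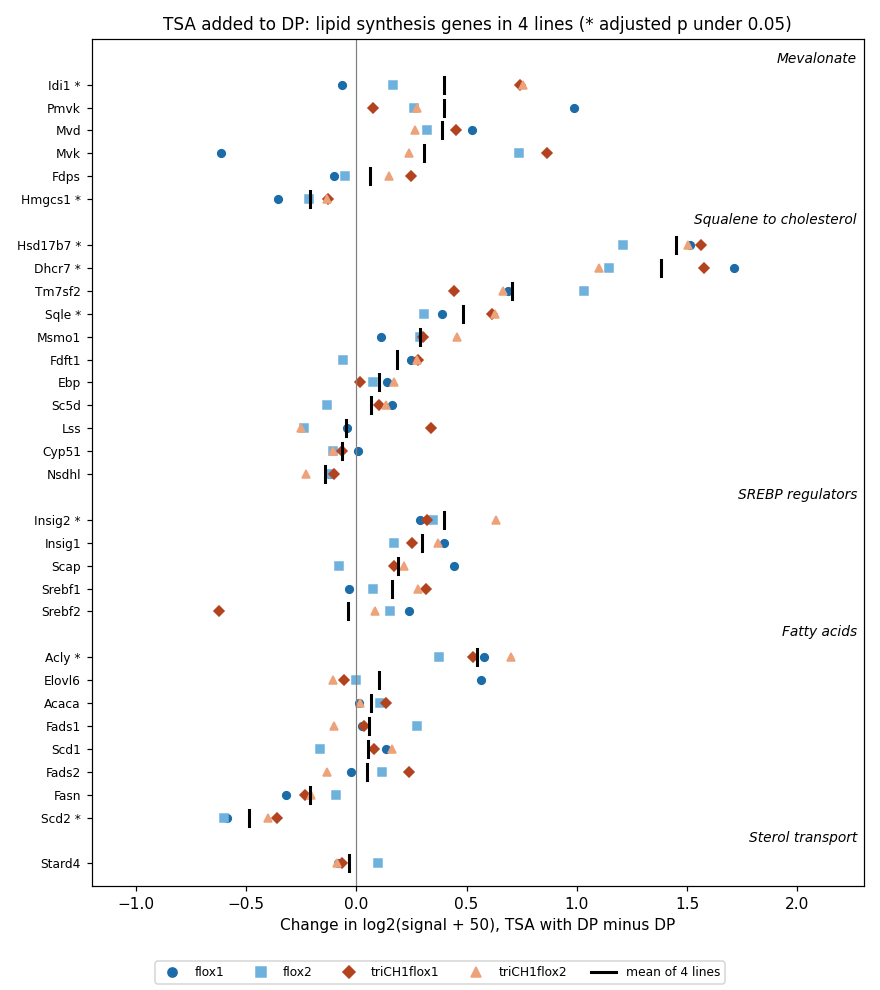
Change when TSA was added to DP (TSA with DP minus DP) of the same 31 genes, on the same x axis in log2(signal + 50). Symbols are lines, bars are means of 4 lines and asterisks mark limma adjusted p under 0.05. Scd2 lies below 0 in all 4 lines, at a mean of -0.49, and Hsd17b7 and Dhcr7 lie between 1.10 and 1.71.

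The next comparison asked whether the iron chelator alters these genes, among them 7 whose enzymes carry iron and use oxygen. DP raised 1 of the 31 genes and lowered 1, against 1.71% of all genes tested (1.44% higher and 0.27% lower), and 4 had an unadjusted p under 0.05, against 12.6%. The median change was -0.01, against -0.03 for all genes. The gene that rose was Scd2, an iron enzyme, and the gene that fell was Fdft1.

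Scd2 went from 15993, 17504, 20536 and 18838 with vehicle to 23057, 24522, 23277 and 21098 with DP. Every DP array was above every vehicle array. The change was 0.34 (1.26-fold, SE 0.0631, n = 4 lines, limma adjusted p = 0.00601), with 0.53 and 0.49 in the control lines and 0.18 and 0.16 in the triCH1 lines. The difference between the classes was -0.33 (SE 0.126) and did not pass (limma adjusted p = 0.979). The other probe sets of Scd2 had changes of 1.33 and 0.54, the first of them with 3.29 in flox1 and 1.09, 0.17 and 0.76 in the other lines.

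Fdft1, which encodes squalene synthase and so joins farnesyl units, went from 3897, 3818, 3307 and 3232 with vehicle to 2092, 3230, 2583 and 2464 with DP, lower on each DP array than on any vehicle array. It fell by 0.46 (1.38-fold, SE 0.103, n = 4 lines, limma adjusted p = 0.0246), and by 0.88, 0.24, 0.35 and 0.38 in the lines. The probe set used is of a kind whose probes can match other transcripts. Its other probe set had a change of -0.22, and the call was lost with the mean of both probe sets. Without the flox1 vehicle array the change was -0.35 (adjusted p = 0.166), where 1 of the 31 genes passed. Leaving out the flox1, triCH1flox1 or triCH1flox2 line left 0 genes past the threshold with DP, and leaving out flox2 left Fdft1 alone. The Scd2 call was lost whichever line was left out, at changes of 0.33 to 0.35 (adjusted p = 0.0554 to 0.126).

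Of the 7 genes of iron enzymes (Cyp51, Msmo1, Sc5d, Scd1, Scd2, Fads1 and Fads2) 1 passed with DP, and their median change was 0.11. Of the other 24 genes 1 passed, and their median was -0.03. Cyp51, Fads1 and Fads2 had changes of -0.09, -0.13 and -0.14, and Msmo1, Sc5d and Scd1 of 0.11, 0.14 and 0.11. Sqle, which uses oxygen without iron, had 0.09.

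Insig2, which is known as a target of the hypoxia response in liver, had the highest DP change of the 31 without passing. Its DP signals were 1477, 1126, 1832 and 1211, against 903, 919, 1179 and 1116 with vehicle. On the probe set used DP was above vehicle in each line, by 0.68, 0.28, 0.62 and 0.11. The mean was 0.42 (SE 0.144, limma adjusted p = 0.216). The 3 probe sets of Insig2 gave means of 0.41 to 0.50, but those not used had -0.054 and -0.045 in flox2. Among the others below 0 in all 4 lines were Hmgcs1 (-0.23), Pmvk (-0.34), Acaca (-0.24) and Fasn (-0.15). In total, 4 of the 31 genes were above 0 in every line and 6 below, against 7.43% and 9.70% of all genes tested.

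**Figure D3:**
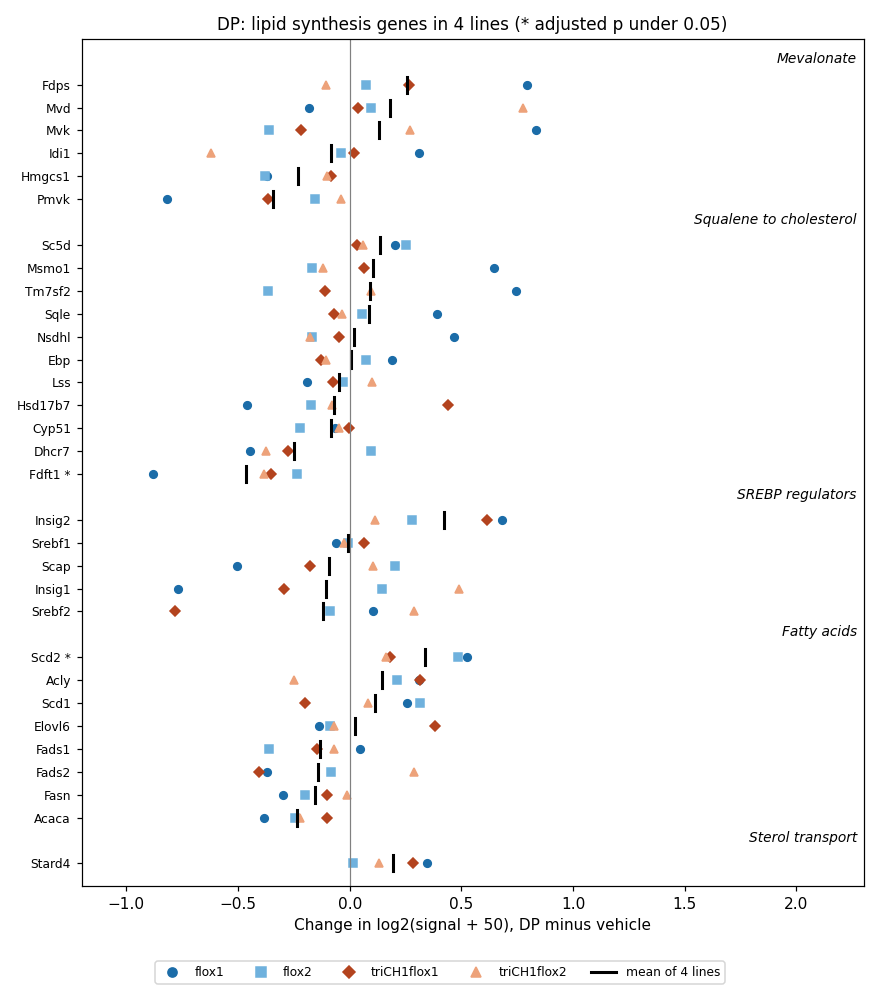
Change with DP (DP minus vehicle) of the same 31 genes, on the same x axis in log2(signal + 50). Symbols are lines, bars are means of 4 lines and asterisks mark limma adjusted p under 0.05. Most means lie near 0, with Insig2 at 0.42, Scd2 at 0.34 and Fdft1 at -0.46.

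With both agents against vehicle, 9 genes rose and 3 fell, against 31.6% of all genes tested (17.8% higher and 13.8% lower). Unadjusted, 15 of the 31 had a p under 0.05, against 41.3% of all genes. This comparison shares its vehicle arrays with the TSA and the DP comparison. Hsd17b7 rose by 1.38 (2.60-fold, limma adjusted p = 2.52e-07), Dhcr7 by 1.13 (2.19-fold, adjusted p = 1.67e-05), Insig2 by 0.82 (1.76-fold, adjusted p = 0.000376), Acly by 0.69 (1.62-fold, adjusted p = 3.23e-05), and Mvd and Sqle by 0.57 each. Msmo1 (0.40) and Idi1 (0.32) rose as well, but both calls were lost without the flox1 vehicle array, at 0.20 and 0.24. Tm7sf2, which was tested through its arrays with TSA, is counted among the 9 at 0.80, and its call was lost at 0.56 without that array. Hmgcs1 fell by 0.44 (adjusted p = 0.000161).

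Fasn encodes the synthase that assembles palmitate. Its signals were 4255, 4900, 5209 and 4576 with vehicle, 3199, 4183, 4682 and 4220.5 with TSA, 3445, 4253, 4858 and 4531.5 with DP, and 2755, 3991, 4123 and 3921 with both. With both agents it was lower than with vehicle in each line, and it fell by 0.37 (1.29-fold, SE 0.0838, n = 4 lines, limma adjusted p = 0.00318). Without the flox1 line the change was -0.28 (adjusted p = 0.0739). Fdft1 fell by 0.28 (adjusted p = 0.0491), a call lost at -0.16 without the flox1 vehicle array (adjusted p = 0.269). Without the flox1 line 7 genes passed, and 8 without the flox1 vehicle array or without triCH1flox1.

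Whether the agents acted additively was tested as the difference between the change with both and the sum of the single changes. By limma 0 of 31 genes passed, and 2 had an unadjusted p under 0.05. Of all genes 0.392% passed, each with a value below 0, and 5.92% unadjusted. Fdft1 had the largest departure, 0.42 (SE 0.145, adjusted p = 0.563). Insig2 had -0.31 and Scd2 -0.23. Adding DP to TSA likewise left 0 genes past the threshold, with 0 at an unadjusted p under 0.05 (of all genes 0.148% passed, 0.139% higher and 0.00871% lower, and 5.35% unadjusted), and changes of -0.20 to 0.15.

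**Figure D4:**
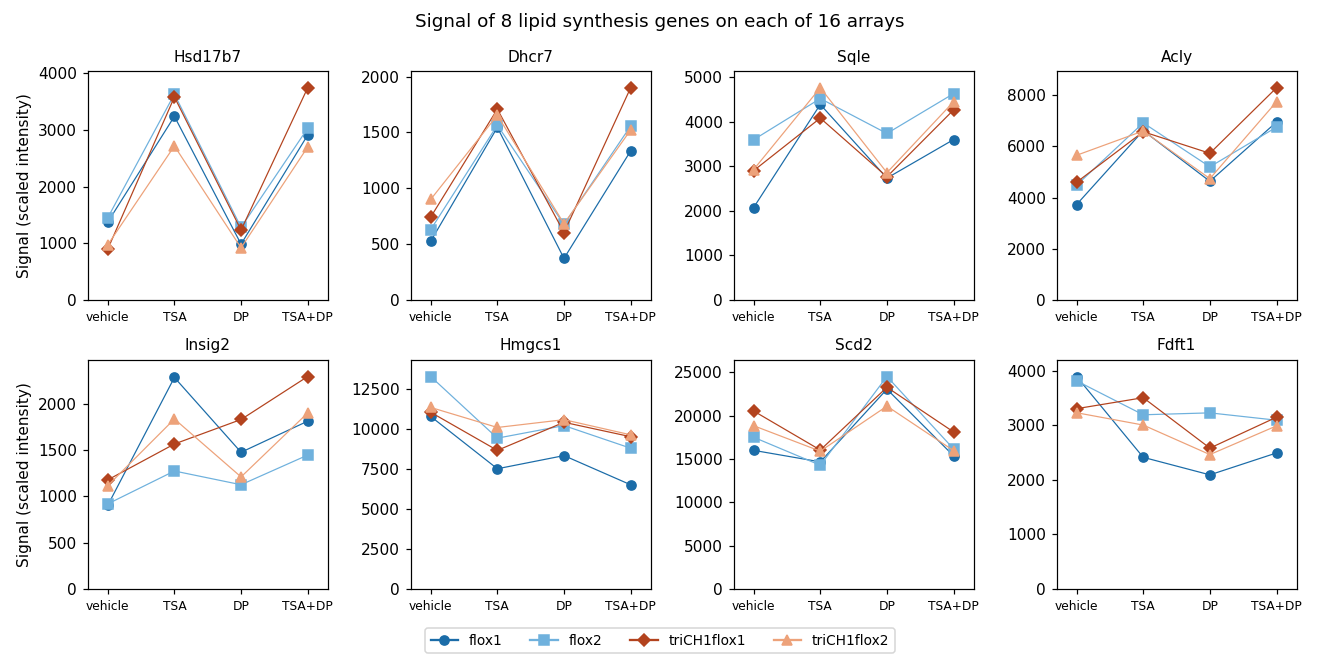
Signal (scaled intensity, linear axis from 0) of 8 genes on each of the 16 arrays, 1 panel per gene and 1 line of symbols per cell line, over vehicle, TSA, DP and TSA with DP. Hsd17b7, Dhcr7 and Acly are high on all arrays with TSA, and Scd2 peaks with DP at 21098 to 24522.

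The triCH1 and control lines were then compared. By limma the TSA response of 0 of 31 genes differed (3 at an unadjusted p under 0.05, against 5.71% of all genes, of which 0 passed after adjustment), as did the DP response of 0 (2 unadjusted, against 4.87% of all genes, of which 0.0261% passed after adjustment). Hsd17b7 had the largest difference of the DP response, 0.50 (SE 0.227, adjusted p = 0.979). One other probe set of Hsd17b7 had DP changes of -0.10 and 0.15 in the control lines and -1.82 and -0.34 in the triCH1 lines. A further one had 1.04 and 0.26 against 0.05 and 0.60. The direction of this difference thus depends on the probe set. The level over all treatments was tested on the means of 2 lines against 2. Here 0 genes passed (3 unadjusted, against 10.6%, while 0.157% of all genes passed, 0.0174% higher and 0.139% lower). The classes differ in sex as well, which cannot be told apart from CH1 genotype. The median difference of the 31 genes was 0.14, against -0.01 for all genes. In the 8 genes of the fatty acid branch the differences ran from 0.10 for Scd2 to 0.35 for Fads2 (SE 0.129, limma adjusted p = 0.397). The flox1 vehicle array, which is in the control class, was the lowest vehicle array for 6 of these 8. Over the arrays other than vehicle, a choice made after seeing the data, the 8 differences ran from 0.05 to 0.42. Srebf1, which drives fatty acid synthesis, had the largest difference, 0.43 (SE 0.110, limma adjusted p = 0.230). Its vehicle signals were 1943.5 and 1955 in the control lines and 2257 and 2444 in the triCH1 lines. With TSA they were 1916 and 2253.5 against 2936 and 3262. Both triCH1 lines were above both control lines under each treatment. The X-linked genes Nsdhl and Ebp had differences of 0.13 and 0.14.

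Other genes of the pathways were read from lists of genes outside the 31. Of 13 tested genes of sterol synthesis, transport and turnover, 2 rose and 1 fell with TSA, where 28.2% of all genes passed, and their median was 0.08 against 0.03 for all genes. Npc1, which exports cholesterol from lysosomes, rose by 0.61 (limma adjusted p = 0.0433), Erlin1, a membrane protein of the endoplasmic reticulum, by 0.36, and the oxysterol hydroxylase gene Cyp7b1 fell by 0.84 (1.80-fold, adjusted p = 0.00491). With DP (1.71% of all genes) 0 of the 13 passed, and with both agents (31.6% of all genes) Npc1 and Erlin1 rose, by 0.69 and 0.32.

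Of 25 further fatty acid genes 11 rose and 3 fell with TSA, with a median of 0.31 against 0.03 for all genes, of which 15.8% rose and 12.5% fell. Acss2, which makes acetyl-CoA from acetate, rose by 1.63 (3.09-fold, SE 0.218, n = 4 lines, limma adjusted p = 3.62e-05), Pnpla2, a triglyceride lipase, by 1.22 (2.33-fold, adjusted p = 9.92e-06), Hacd3, a dehydratase of chain elongation, by 0.76 and the elongase gene Elovl5 by 0.69. Acss2 reached a signal of 200 on all 8 arrays with TSA and on 2 of the 8 without. Elovl4 reached it on 6 of the 8 with TSA and 1 of the 8 without, so it was tested only through arrays with TSA. The counts and the median of this list include Elovl4. With DP 0 of the 25 passed, where 1.71% of all genes did. With both agents 11 rose and 4 fell (17.8% and 13.8% of all genes), Acss2 by 1.58 and Pnpla2 by 1.03 among the rises. When TSA was added to DP, Acss2 rose by 1.51 and Pnpla2 by 1.32, with 9 of the 25 up and 3 down (17.7% and 12.2% of all genes).

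Of 14 genes that control SREBP or belong to the sterol receptor LXR, 5 rose and 0 fell with TSA, where 28.2% of all genes passed. Paqr3, a Golgi protein that tethers the SCAP complex, rose by 1.86 (3.62-fold, SE 0.235, n = 4 lines, limma adjusted p = 2.12e-05), but it reached a signal of 200 on 1 of the 8 arrays without TSA and on all 8 with it, so it was tested through the arrays where it was high. Prkaa2 and Abcg1, also among the 14, each reached it on 1 of the 8 arrays without TSA and on 5 with it. They too were tested only through arrays with TSA. The 5 rises include Paqr3, and the 14 genes include all of these. Mylip, a ubiquitin ligase for lipoprotein receptors, rose by 0.56. The phospholipid enzyme gene Lpcat3 and the cholesterol exporter gene Abca1 rose by 0.53 and 0.39. With DP 0 of the 14 passed, where 1.71% of all genes did. With both agents (31.6% of all genes passed) Paqr3 (1.97), Abca1 (0.41) and Fbxw7 (0.44), whose ligase degrades SREBPs, rose. Nr1h3, the gene of LXR alpha, was called lower, but it reached a signal of 200 on only 2 vehicle arrays and no other array, and no fold is given.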

How the data were processed

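Biotin-labelled RNA of 16 cultures was hybridised to Affymetrix mouse arrays. Per the labels, the authors deposited 1 intensity per probe set, computed with the Affymetrix statistical algorithm and scaled to a target of 500; the trimmed mean (2% at each end) was checked and met it. The software version is not given in the sources used here. Of 45101 probe sets, 34945 carried a single gene symbol. Values were analysed as log2(signal + 50), so fold changes of dim genes are understated. A probe set was tested at a signal of at least 200 on 2 arrays, and the brightest per gene was used (11481 genes). A linear model (limma 3.58.1, R 4.3.3) had 8 means of class and treatment, a term for the line within its class as replicate block, and a variance trend (6 residual and 10.4 prior degrees of freedom). Levels were compared on line means. P-values were adjusted by Benjamini-Hochberg over all genes tested, at 0.05. The line term rests on the same line having received all 4 treatments. Deviations from group means correlated between arrays of 1 line at 0.16 to 0.328 for control and 0.077 to 0.32 for triCH1 lines (12 pairs each). In a class of 2 lines the deviations of 1 line mirror those of the other, so both lines give the same correlations. The number of arrays limits the precision. The steps were tested on simulated data. Promoters were searched with Python 3.11.15, and figures drawn with matplotlib 3.10.9.

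The genes, the other lists and the markers were chosen with earlier results of these data known. All 31 measured genes were named, with values on every array for most that passed, and up to 4 genes of each other list with the smallest adjusted p per treatment comparison. TSA with DP was compared with DP and with TSA after the values were seen. The alternatives changed the pseudocount, filter, choice of probe set, scaling, block, variance trend, array series, arrays and lines.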

Additional observations from a re-analysis of the deposited data

Results flagged for a closer look

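Over 93 sets of changes (31 genes under 3 treatments, 4 lines each), 3 held 1 line far from the others by Dixon's test at the 95% level, and chance gives about 1 in 20. With TSA, Nsdhl had a change of 0.7748 in flox1 and of -0.38, -0.24 and -0.34 in the other lines. Its signal on the flox1 vehicle array was 806, against 1420 to 1538 on the other vehicle arrays; the part of that array's RNA integrity in the value was not tested. With TSA and DP, Dhcr7 had 0.7258 in triCH1flox2, against 1.24 to 1.30 in the others, and its vehicle signal was highest in that line (901). With DP, Elovl6 had 0.3807 in triCH1flox1, against -0.14 to -0.07 in the others. Its other probe sets had -0.16 and -1.85 in triCH1flox1. In triCH1flox1 the vehicle and DP arrays are of different barcode series, so treatment and series cannot be told apart there.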

How the results depend on the processing

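Up to 16 alternatives were tried for each result. The TSA changes of Hsd17b7, Dhcr7, Sqle and Hmgcs1 kept their direction and stayed past the threshold in all 16, as did those of Hsd17b7, Dhcr7, Sqle, Hmgcs1 and Insig2 with both agents and those of Hsd17b7, Dhcr7 and Scd2 when TSA was added to DP. The number of genes past the threshold with TSA (11) was 7 with no variance trend, 6 on the larger array series alone and 6 to 10 when lines or arrays were left out. With DP (2) it was 1 with the mean of all probe sets, 1 with no replicate block, 0 with no variance trend, 0 on the larger series and 0 to 2 with lines or arrays left out. With both agents (12) it was 7 on the larger series and 7 to 11 with lines or arrays left out. With TSA added to DP (8) it was 5 with no replicate block, 5 with no variance trend, 4 on the larger series and 5 to 10 with lines or arrays left out. The share of all genes that passed under each alternative is not given here or above. Lower counts can therefore not be read as particular to these genes. Averaging the probe sets turned the TSA change of Scd2 from -0.25 to 0.12. The change of Srebf2 with both agents (-0.16, not called) turned to 0.20 with a term for the array series, 0.37 on the larger series and 0.29 without the triCH1flox1 line (-0.60 to 0.29 with lines or arrays left out). That of Mvk with TSA added to DP (0.31, not called) turned to -0.024 on the larger series and -0.030 without the flox2 line (-0.030 to 0.64 with lines or arrays left out). Of 702 values of single genes under alternatives, 548 kept direction and side of the threshold, 132 no longer passed, 16 newly passed and 6 reversed. The cause of these moves was not tested. When a line was left out, the other line of its class was assumed to vary like the rest. Quantile normalization moved the median gene by less than 0.1.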
